A study of Homo sapiens with 4 samples.

Results

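The genes described here encode the ATR, ATM and CHK kinases of the DNA damage and replication checkpoint and the proteins that feed into them: ATM, ATR, RAD17, TOPBP1, CLSPN, TIMELESS, TIPIN, CHEK1, CHEK2 and WEE1. Members were taken as every probe set (a group of array probes read out as 1 value) that the platform annotation assigns to exactly 1 of these genes. That gave 27 of the 49293 probe sets and 10 of the 18132 named genes. RNA of the human tongue squamous carcinoma cell line SCC-15 was hybridised to 1-colour Affymetrix arrays. Cells received either a mimic, meaning a synthetic copy of a mature microRNA, or the negative control oligonucleotide miR-NC. Oligonucleotides were used at 30 nM on cells plated 24 h earlier, and RNA was taken 36 h after transfection, with 2 arrays for the mimic and 2 for the control. The mimic is called miR-585-5p in the sample labels and miR-762 in the series title and design text, so it is called the mimic here. All 4 arrays are of 1 cell line, and nothing in the labels places the replicates in separate cultures, so the p-values carry only the array-to-array spread, part or all of which could be technical.

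The checkpoint works as a relay. ATR, with its partners, is recruited to single-stranded DNA at stalled replication forks, where RAD17 loads a clamp and TOPBP1 switches the kinase on; claspin (CLSPN) and the TIMELESS and TIPIN pair then pass the signal to CHK1, the kinase encoded by CHEK1. ATM answers to double-strand breaks and activates CHK2, encoded by CHEK2. CHK1 restrains the CDC25 phosphatases, and WEE1 adds the inhibitory phosphate that CDC25 removes from cyclin-dependent kinases, so both arms end in a block on entry to S phase and mitosis. Several of these genes are transcribed mainly around S phase in dividing cells.

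The mature sequences of both named microRNAs are shown because the sources differ on which was transfected. They are the RefSeq entries on GRCh38.p14, at chr16:30893951-30893972 on the plus strand for hsa-miR-762 and chr5:169263649-169263670 on the minus strand for hsa-miR-585-5p. Capitals mark the seed, bases 2 to 8, which pairs with target messages.
hsa-miR-762: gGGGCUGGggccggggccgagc
hsa-miR-585-5p: cUAGCACAcagauacgcccaga
The 2 seeds have the same base at 2 positions, counted from the 5′ end of the seed. No transcript sequence was used, so target sites in the checkpoint genes were not searched.

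Checkpoint genes were mostly higher in the mimic arrays. Of the 10 genes, 6 rose (ATM, ATR, TOPBP1, CLSPN, CHEK1 and CHEK2), 0 fell and 4 did not pass the test (limma, Benjamini-Hochberg adjusted p under 0.05 over 14340 genes). At an unadjusted limma p under 0.05 there were 8 higher and 0 lower, a cut that 6455 of the 14340 genes tested passed in either direction. Among all genes tested 17.7% were called higher and 12.3% lower. The median difference of the 10 genes was 0.45 on the log2 scale (mimic minus control), against -0.02 for all genes tested, and their range was -0.02 to 0.82. CHEK1 had the largest difference, 0.82 or 1.77-fold, and RAD17 the smallest, -0.02. In 9 of the 10 genes both mimic arrays lay above both control arrays, which held for 34.2% of all genes, and RAD17 was the exception. Larger amounts of these messages in each cell and a larger share of cells in the phases that express them cannot be told apart in bulk RNA.

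**Figure D1:**
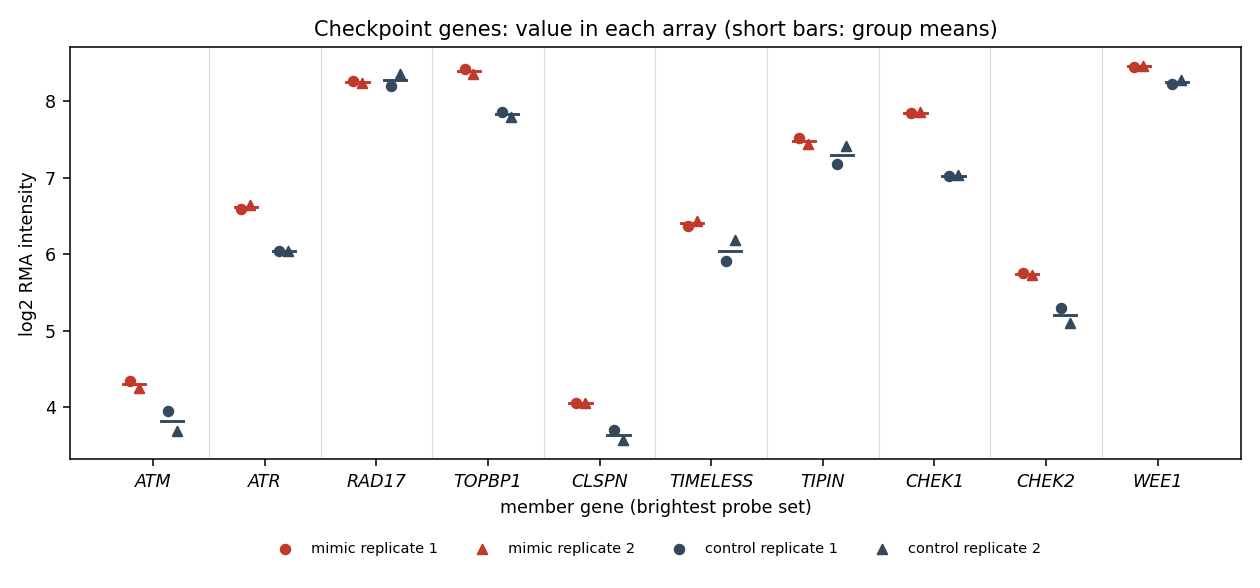
Log2 RMA intensity of each checkpoint gene in each of the 4 arrays, with mimic left of control, circles for replicate 1, triangles for replicate 2 and short bars for group means. Mimic points lie above both control points for every gene but RAD17, and the gap is widest for CHEK1 (7.84 and 7.85 against 7.02 and 7.03); heights of different genes are not comparable, since probe sets differ in brightness.

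Levels below are log2 RMA intensities of the brightest probe set of a gene, and differences are mimic minus control with limma's standard error. Replicate arrays correlated at r = 0.998 for both mimic arrays and 0.997 for both control arrays across probe sets, against 0.991 for a mimic and a control array, as a description only. The squamous markers KRT5, KRT14, SFN and DSG3 were at 9.48 to 12.32 in all arrays, and KRT6A and TP63 had no probe set of their own. KRT14 (1.15 ± 0.12 SE, adjusted p = 0.00479 in limma) and KRT5 (0.48 ± 0.059, adjusted p = 0.00653) rose. SFN (-0.14) and DSG3 (-0.07) did not pass, with both mimic arrays below both controls in each. The summed intensity of the 4 markers was 9056 and 9202 in the mimic arrays against 7050 and 6724 in the controls. The part of these markers in the results was not tested. Of 9 markers of blood, endothelial and fibroblast cells with a probe set, PTPRC and LUM were dim, and the other 7 lay between 3.39 and 5.38. The summed intensity of those 7 was 146 and 152 in the mimic arrays and 150 and 146 in the controls. CD14 was the only one called (0.53 ± 0.12 SE, adjusted p = 0.033 in limma), and its part in the results was not tested. Of the 7 differences 2 were positive. In 4 of the 7 (VWF, COL1A1, PDGFRB and CDH5, at -0.28 to -0.15) both mimic arrays lay below both controls. The smallest two-sided p that an exact permutation test allows with 2 mimic and 2 control arrays is 0.333, so calls rest on limma's pooling of variance over genes.

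Both apical kinase genes rose. ATR, the replication stress kinase, has a single probe set (11743838_a_at), which read 6.59 and 6.64 in the mimic arrays against 6.04 and 6.04 in the controls. The 2 control values were nearly equal and well apart from both mimic values. ATR rose by 0.57 ± 0.058 (SE), or 1.49-fold (95% interval of the log2 difference 0.42 to 0.72, adjusted p = 0.00422 in limma). ATM, the double-strand break kinase, lay close to the dim level of 2.83 under which probe sets were left out. Its brightest probe set (11720014_a_at) read 4.35 and 4.26 in the mimic arrays against 3.95 and 3.69 in the controls. Those control arrays differed from each other by more than the mimic arrays did. The difference was 0.48 ± 0.10, or 1.40-fold (interval 0.22 to 0.75, adjusted p = 0.0263).

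The rise of ATM rested on 1 of its 5 probe sets. Of 3 that were tested, the other two gave 0.13 and 0.19 and did not pass in the test over all 31711 kept probe sets, although both mimic arrays lay above both controls in each. The remaining pair were dim, with differences of 0.10 and 0.20. Leaving out any array ended the calls of both kinases. ATR was at 0.55 to 0.60 in those fits with adjusted p between 0.0502 and 0.0725, and ATM at 0.36 to 0.61 with adjusted p between 0.0561 and 0.17. With 16 added to each intensity before the logarithm, which shrinks the differences of dim genes, ATM was at 0.25.

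Between the kinases and their effectors stand a clamp loader and mediators, and these did not move alike. TOPBP1, the protein that activates ATR at the clamp, read 8.41 and 8.36 in the mimic arrays against 7.86 and 7.79 in the controls (probe set 11743824_s_at). The gap between mimic and control arrays was several times the spread inside either group. TOPBP1 rose by 0.56 ± 0.062 (SE), or 1.47-fold (interval 0.40 to 0.72, adjusted p = 0.00514). Its second probe set also rose, by 0.38. RAD17, the loader of the 9-1-1 clamp, gave 8.25 and 8.24 in the mimic arrays against 8.19 and 8.35 in the controls (probe set 11757984_s_at). Here both mimic values lay between the control values. The difference was -0.02 ± 0.075, with an interval from -0.22 to 0.17 and an adjusted p of 0.834. All 3 RAD17 probe sets gave values close to 0, between -0.07 and -0.02, and in none were the groups apart.

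CLSPN encodes claspin, the adaptor on which ATR phosphorylates CHK1. Its brighter probe set (11754044_at) read 4.05 and 4.06 in the mimic arrays against 3.71 and 3.57 in the controls. These are low levels, but both mimic arrays stood above both controls. CLSPN rose by 0.42 ± 0.072 (SE), or 1.33-fold (interval 0.23 to 0.60, adjusted p = 0.0155). A second CLSPN probe set was dim and went the other way, with 2.55 and 2.55 in the mimic arrays against 2.73 and 2.70 in the controls, and it was not tested. With 16 added to each intensity the difference of CLSPN was 0.20. Without 1 array TOPBP1 was at 0.53 to 0.59 (adjusted p from 0.0525 to 0.076) and CLSPN at 0.35 to 0.49 (adjusted p from 0.0536 to 0.12), and neither passed. RAD17 was at 0.06 without control replicate 2.

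The fork protection pair, which travels with the replisome and holds claspin at the fork, did not pass at the level of genes. TIMELESS read 6.37 and 6.44 in the mimic arrays against 5.90 and 6.18 in the controls (probe set 11719123_a_at). Control replicate 1 was the lowest array, and the 2 control arrays were further apart than the mimic arrays. The difference was 0.36 ± 0.11 (SE), or 1.28-fold, with an interval of 0.08 to 0.63 and an adjusted p of 0.0613. Its dimmer probe set had a smaller difference, 0.29, with less spread, and was called higher in the test over probe sets. TIMELESS passed in 4 of 12 alternatives, and its difference was 0.22 without control replicate 1 and 0.50 without control replicate 2, neither of which passed.

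TIPIN, the partner of TIMELESS, gave 7.51 and 7.43 in the mimic arrays against 7.18 and 7.41 in the controls (probe set 11727081_a_at). Control replicate 2 came close to the lower mimic array, while control replicate 1 was further below. The difference was 0.18 ± 0.096, with an interval of -0.07 to 0.42 and an adjusted p of 0.214, and 0 of its 3 probe sets passed. The other two gave 0.16 and -0.06. Without control replicate 1 the difference was 0.06, and without control replicate 2 it was 0.29.

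The effector kinases were led by CHEK1. Its brightest probe set (11738250_at) read 7.84 and 7.85 in the mimic arrays against 7.02 and 7.03 in the controls. Replicates were almost equal inside each group. CHEK1 rose by 0.82 ± 0.056 (SE), or 1.77-fold (interval 0.68 to 0.97, adjusted p = 0.00172), a difference above that of 96.7% of the genes tested. All 6 CHEK1 probe sets were called higher, with differences from 0.31 to 1.004. At the low end, 1 probe set read 6.23 and 6.22 in the mimic arrays against 5.88 and 5.94 in the controls. At the high end another read 5.24 and 5.28 in the mimic arrays against 4.13 and 4.38 in the controls. Their 95% intervals, 0.14 to 0.48 and 0.75 to 1.26, did not overlap. CHEK1 passed without control replicate 1 (adjusted p = 0.0464) and without control replicate 2 (0.043), and did not pass without mimic replicate 1 (0.0553) or mimic replicate 2 (0.0578), where no gene of the array passed. Its difference stayed between 0.81 and 0.83 in those fits.

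CHEK2, the effector of ATM, showed disagreement between its probe sets. The brighter (11755467_x_at) read 5.75 and 5.73 in the mimic arrays against 5.30 and 5.10 in the controls. Both control arrays were lower than both mimic arrays. CHEK2 rose by 0.54 ± 0.084 (SE), or 1.45-fold (interval 0.32 to 0.76, adjusted p = 0.0121). The dimmer probe set read 3.66 and 3.53 in the mimic arrays against 3.77 and 3.66 in the controls, a difference of -0.12 that did not pass. With both averaged the CHEK2 difference was 0.21 and did not pass. Both probe sets are of a kind (_x_at) that can take up signal from similar sequences. CHEK2 passed without control replicate 1 (0.64, adjusted p = 0.0477), and lost its call without control replicate 2 (0.44, adjusted p = 0.0546) and with either mimic array left out (0.53 and 0.55, adjusted p = 0.112 and 0.106).

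WEE1, the kinase that holds CDK1 inactive, has 1 probe set (11719047_s_at), with 8.45 and 8.46 in the mimic arrays against 8.22 and 8.28 in the controls. The groups stood apart, but by a small margin. The difference was 0.20 ± 0.059 (SE), or 1.15-fold, with an interval of 0.05 to 0.35 and an adjusted p of 0.0562. WEE1 passed in 4 of 11 alternatives. After quantile normalization across the arrays it was at 0.11 and did not pass.

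Counted over probe sets, 13 of the 24 that were tested were called higher and 0 lower by limma, where 14.5% of all probe sets tested were called higher and 7.95% lower. At an unadjusted p under 0.05 the number lower was also 0, the 5 negative differences having limma p from 0.209 to 0.78. Of the 13 calls, 6 belonged to CHEK1, 2 to TOPBP1 and 1 each to ATM, ATR, CHEK2, CLSPN and TIMELESS. In 18 of the 24 both mimic arrays lay above both controls, against 33.4% of all probe sets tested. A further 3 probe sets, 2 of ATM and 1 of CLSPN, were dim and not tested. Probe sets of 1 gene share its message and are not replicates. Another 2 probe sets, which the annotation assigns to CHEK2 or TIPIN together with other loci, fell outside the rule and were not used.

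**Figure D2:**
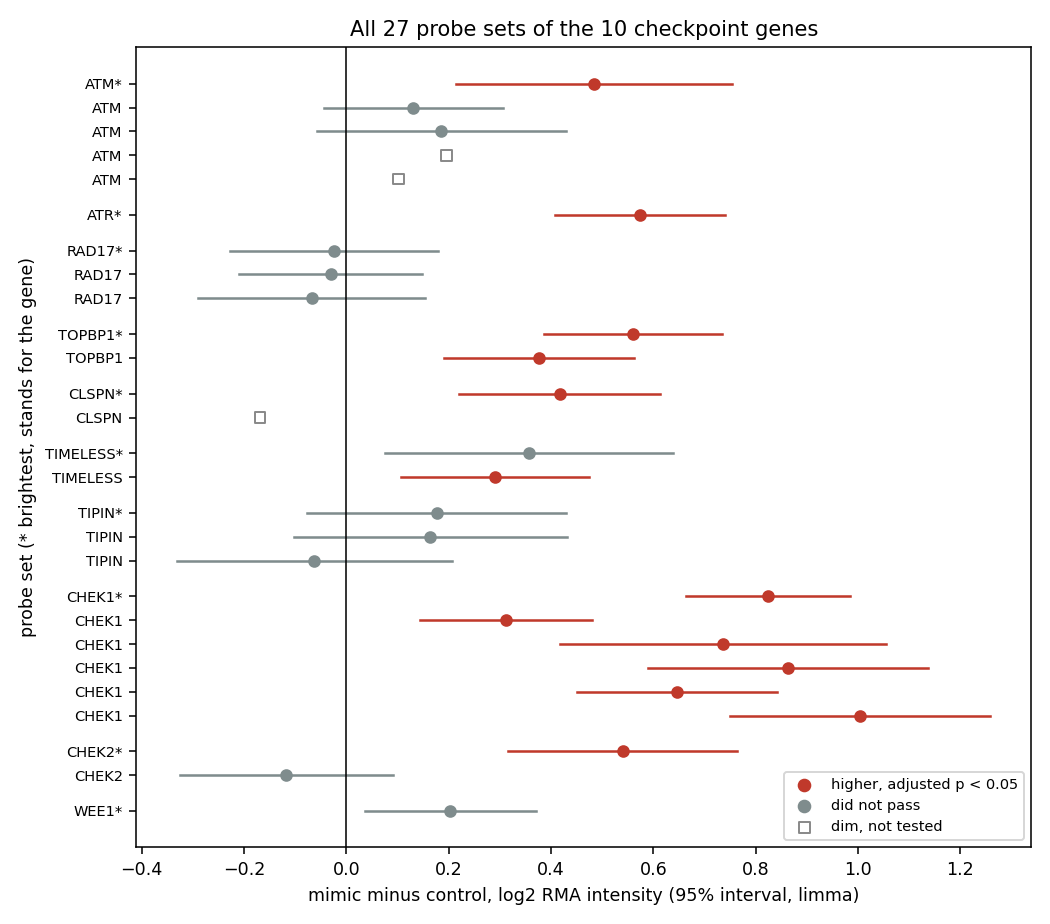
Mimic minus control difference of all 27 checkpoint probe sets on the log2 scale with limma's 95% interval, red where called higher, grey where not passed and open squares where dim and untested; an asterisk marks the brightest probe set of a gene. The 6 CHEK1 probe sets all lie right of 0, between 0.31 and 1.004, while those of ATM, CHEK2 and CLSPN spread, and RAD17 stays near 0.

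Set among all 14340 genes, the differences of the 6 called members exceeded those of 88.9% (CLSPN) to 96.7% (CHEK1) of genes. TIMELESS exceeded 86.5%, WEE1 76.8%, TIPIN 74.5% and RAD17 49.2%. These positions describe the size of a difference, not its error. The largest difference of any gene was 3.18.

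**Figure D3:**
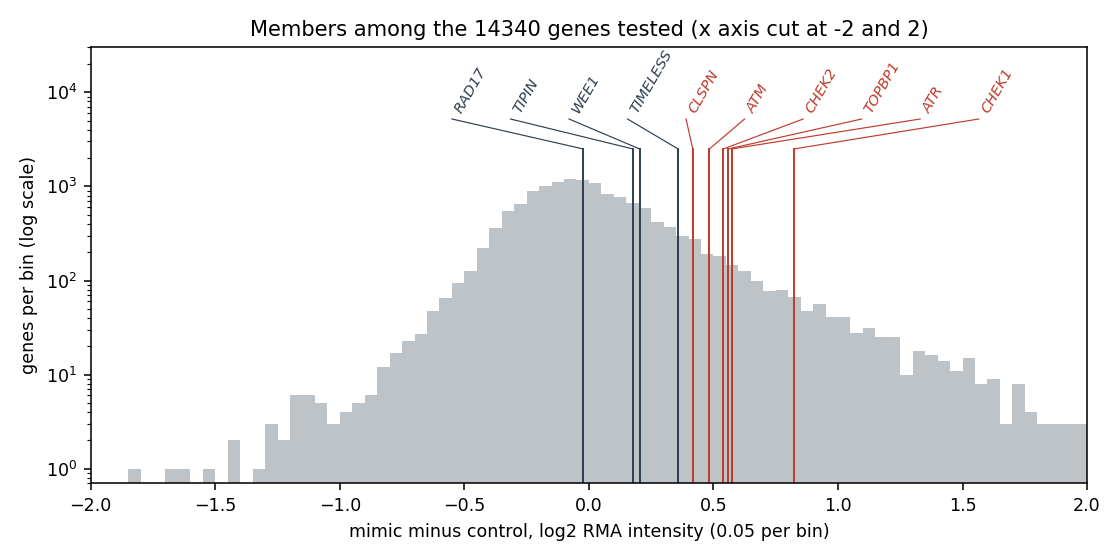
Histogram of the mimic minus control log2 difference of the 14340 genes tested, with the count per bin on a log axis, and vertical lines at the 10 checkpoint genes, red for those called higher. RAD17 sits at the centre of the distribution, TIPIN, WEE1 and TIMELESS on its right side, and the 6 called genes further right, up to 0.82 for CHEK1.

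Other genes of the pathway were counted in 5 lists, 62 genes in all, of which 58 were tested with 1 probe set each. Of these, 31 rose and 2 fell, 25 missed the threshold, and they had a median difference of 0.37, against -0.02 over all genes. As shares, 53.4% of the 58 were called higher and 3.45% lower, against 17.7% and 12.3% of all genes tested, the background for the calls of each list below. At an unadjusted limma p under 0.05 there were 37 of the 58, in either direction. The background for the unadjusted counts below is 6455 of the 14340 genes tested, in either direction. The list of ATR activators and clamp parts had 8 of 13 genes higher and 0 lower (median 0.38; 9 at an unadjusted p under 0.05). RPA2, a subunit of the protein that coats single-stranded DNA, rose by 0.69 ± 0.087 (SE), while the clamp loader subunit genes RFC5 and RFC4 rose by 0.66 ± 0.064 and 0.57 ± 0.076. RPA2 read 8.22 and 8.20 in the mimic arrays against 7.42 and 7.63 in the controls. RFC5 and RFC4 encode subunits that RAD17 shares with the replication clamp loader, and RAD17 itself was at -0.02.

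Genes of ATM activation and of the mediators at breaks had 6 of 11 higher and 0 lower (median 0.29; 6 at an unadjusted p under 0.05). BRCA1, a repair and checkpoint mediator, rose by 1.35 ± 0.064 (SE), or 2.55-fold, with 7.43 and 7.46 in the mimic arrays against 6.05 and 6.15 in the controls. That difference was larger than that of any of the 10 checkpoint genes. MDC1, the scaffold that binds phosphorylated H2AX, rose by 0.84 ± 0.083. PRKDC, the catalytic subunit gene of DNA-dependent protein kinase, rose by 0.73 ± 0.10.

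The list of checkpoint kinase targets and cell cycle brakes also holds mitotic genes that are not brakes, such as CCNB1 and CDK1. Its genes went both ways, with 6 of 11 higher and 1 lower (median 0.23, with 8 at an unadjusted limma p under 0.05 in either direction). CCNB1, which encodes cyclin B1, rose by 1.74 ± 0.098 (SE), with 8.97 and 9.11 in the mimic arrays against 7.19 and 7.40 in the controls. FBXO5, whose product EMI1 inhibits the anaphase-promoting complex, rose by 1.55 ± 0.091. CDK1, the mitotic kinase that WEE1 inhibits, rose by 1.14 ± 0.12. The gene that fell was CDKN1A, which encodes the CDK inhibitor p21 (-1.13 ± 0.056, named after its value was seen), with 9.90 and 9.91 in the mimic arrays against 11.04 and 11.04 in the controls.

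Genes of checkpoint shutdown and protein turnover had 6 of 11 higher and 1 lower (median 0.26, with 7 at an unadjusted limma p under 0.05 in either direction). MDM4, a p53 inhibitor, rose by 0.60 ± 0.074 (SE). USP28 and USP7, deubiquitinases that stabilise claspin among other proteins, rose by 0.60 ± 0.14 and 0.49 ± 0.057. PPM1D, the phosphatase WIP1 that turns off ATM and CHK signalling, fell by 0.44 ± 0.095 (named after its value was seen). It read 5.75 and 5.71 in the mimic arrays against 6.05 and 6.29 in the controls.

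Partners in fork protection and origin firing had 5 of 12 higher and 0 lower (median 0.48; 7 at an unadjusted p under 0.05). DONSON, a replication fork protein, rose by 1.12 ± 0.095 (SE), with 6.49 and 6.56 in the mimic arrays against 5.52 and 5.29 in the controls. WDHD1, a replisome scaffold also called AND-1, rose by 0.79 ± 0.14. DBF4, the activating subunit of the origin-firing kinase CDC7, rose by 0.68 ± 0.085. With either mimic array left out 0 genes of the 5 lists passed in limma, with 32 and 31 under an unadjusted p of 0.05. Without control replicate 1 there were 7 higher and 1 lower, and without control replicate 2 there were 15 higher and 1 lower.

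**Figure D4:**
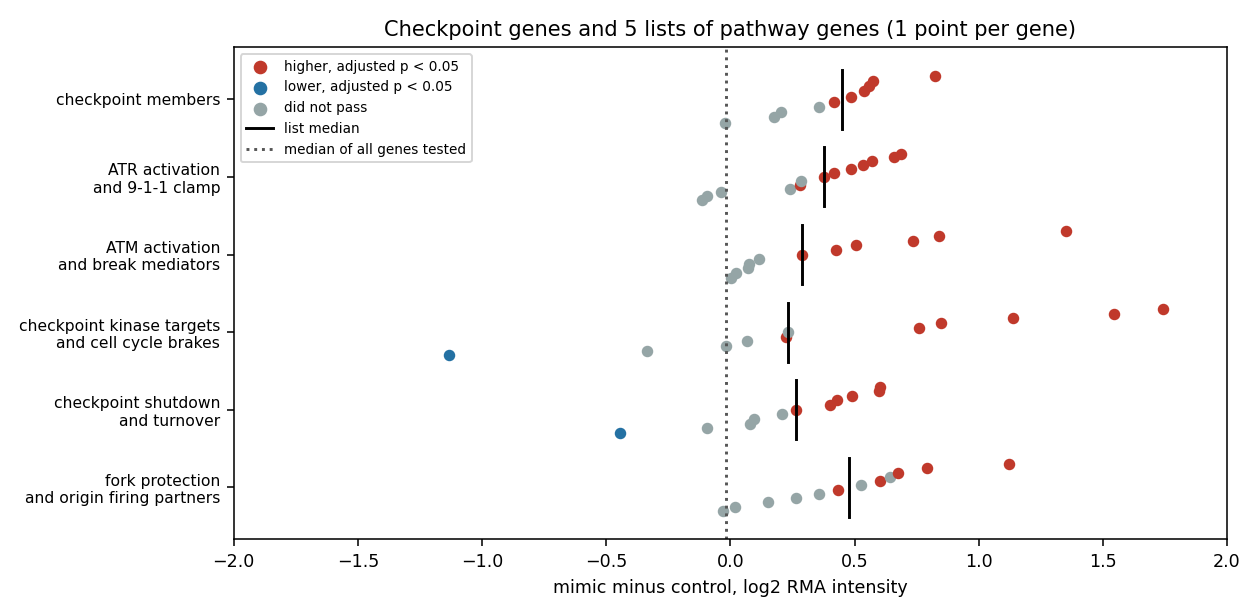
Mimic minus control log2 difference of each tested gene of the checkpoint set and of the 5 pathway lists, 1 point per gene, red for called higher, blue for called lower and grey for not passed, with list medians as black bars and the median of all genes dotted. All 6 medians lie right of the dotted line, between 0.23 and 0.48, and the points at -1.13 and -0.44 are CDKN1A and PPM1D.

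Promoter windows of the checkpoint genes were read for short words known from cell cycle genes, because 6 of the genes were called higher. The windows are RefSeq's on GRCh38.p14, 250 bases before to 50 after a listed start site, and 9 of the 10 genes matched, with 15 windows. For CHEK1 and RAD17 no window reached the annotated start of the gene (chr11:125625136 and chr5:69369293), so those stretches were not read. An E2F word (TTTCCCGC, TTTGGCGC, TTTCGCGC or TTTGCCGC, either strand) was found in 3 of these windows, 1 each for CLSPN, TOPBP1 and TIPIN, and in 3.31% of the 35116 windows of all genes. The TIPIN window with the word (chr15:66356636-66356935) lies inside the annotated gene. The other TIPIN window, at the annotated start of the gene (chr15:66386717), held 0 E2F words. The CCAAT word, either strand, was found in 11 of the 15 windows, belonging to 7 of the 9 genes, against 34.6% of all windows. The 3 CHEK1 windows overlap and share 1 of these sites. TTTGAA, the core of the CHR element of mitotic genes, was found in 2 of the 15, 1 of ATM and 1 of RAD17, against 15.2% of all windows. CLSPN and TOPBP1 rose while TIPIN did not pass. CHEK1, which had the largest difference, held none of the 4 exact E2F words in its 3 windows, which leave out its gene start. The part of any of these words in the differences was not tested. A match describes letters in these windows and not binding.

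Shown for comparison are the 3 windows with an E2F word and 1 window of CHEK1, each from 140 bases before the start to the tenth base of the transcript. Capitals mark E2F and CCAAT words, which read GCGGGAAA, GCGCGAAA or ATTGG where they lie on the other strand. The stretches are chr11:125626216-125626365 on the plus strand for CHEK1, chr1:35769969-35770118 on the minus strand for CLSPN, chr3:133661932-133662081 on the minus strand for TOPBP1 and chr15:66356676-66356825 on the minus strand for TIPIN.
CHEK1: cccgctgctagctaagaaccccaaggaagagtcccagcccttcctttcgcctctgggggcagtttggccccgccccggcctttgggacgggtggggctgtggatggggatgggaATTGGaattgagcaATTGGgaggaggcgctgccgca
CLSPN: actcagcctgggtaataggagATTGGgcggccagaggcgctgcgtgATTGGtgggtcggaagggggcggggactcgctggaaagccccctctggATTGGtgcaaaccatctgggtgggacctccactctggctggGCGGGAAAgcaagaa
TOPBP1: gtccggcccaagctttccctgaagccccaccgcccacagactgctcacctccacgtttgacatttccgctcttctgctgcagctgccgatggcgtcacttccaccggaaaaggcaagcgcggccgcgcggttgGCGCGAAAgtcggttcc
TIPIN: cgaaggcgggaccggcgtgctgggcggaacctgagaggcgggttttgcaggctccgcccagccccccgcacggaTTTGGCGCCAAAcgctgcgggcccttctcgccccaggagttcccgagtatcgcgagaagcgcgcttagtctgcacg
In TIPIN the word TTTGGCGC and its reverse complement overlap, so the capitals run on as 1 stretch. In CLSPN and TOPBP1 the E2F word lies at the annotated start, from 5 bases before it in CLSPN and 7 bases before it in TOPBP1.

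These calls were set against other ways of processing the same arrays. CHEK1, ATR and TOPBP1 passed in all 8 alternatives that kept the 4 arrays, and ATM and CLSPN in all 7 that could test them. CHEK2 passed in 6 of the 7 that could test it, the exception being the mean of its probe sets. After quantile normalization 44.0% of all calls were higher, against 59.0% in the test used here, while the same 6 checkpoint genes were called higher in both.

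**Figure D5:**
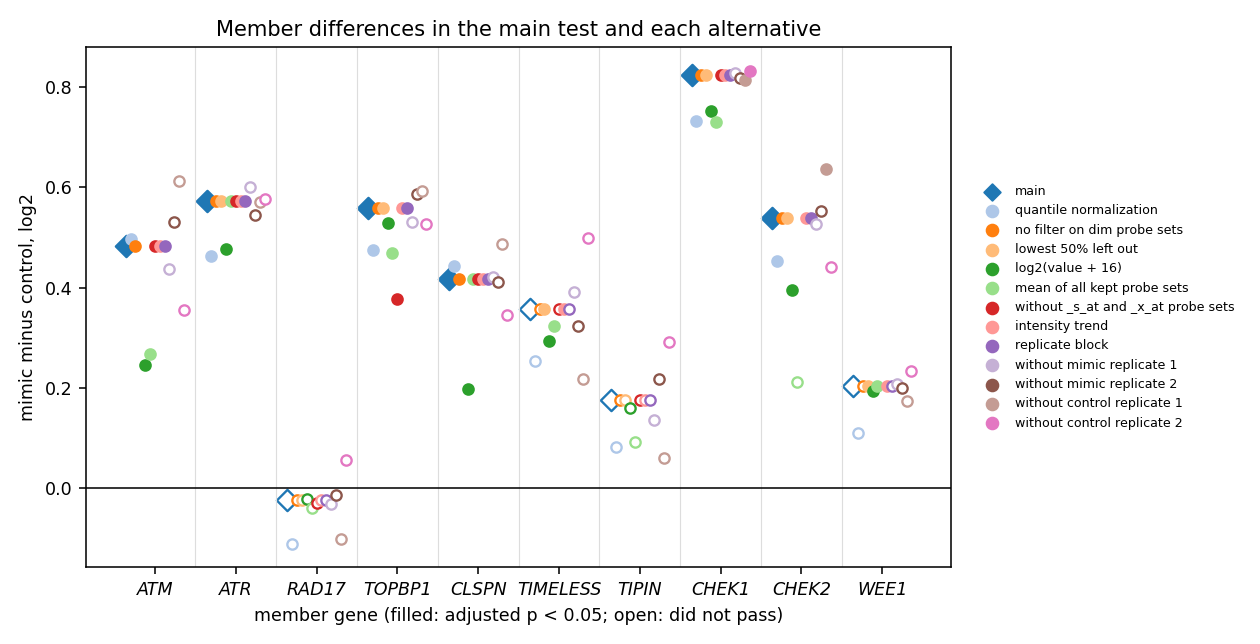
Mimic minus control log2 difference of each checkpoint gene in the test used here (diamond) and in each alternative (circles), filled where the adjusted p was under 0.05 and open where it was not. CHEK1 stays between 0.73 and 0.83, RAD17 between -0.11 and 0.06, and TIMELESS and WEE1 hold both filled and open points.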

How the data were processed

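SCC-15 RNA was measured on 2 mimic and 2 control arrays. The deposited values are 1 intensity per probe set and array, made by the authors with RMA, per the submitters' processing notes; its software is not given in the sources used here. These intensities are on a linear scale (1.62 to 11401), with medians of 17.2 and 17.5 for the mimic arrays and 17.3 and 17.5 for the controls; log2 was taken first. Centring beyond RMA is unknown, and the direction follows the sample titles. No detection calls were used, so dim values cannot be told from background, and the number of arrays limits precision.

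Of 49293 probe sets, 44988 had 1 gene symbol in the platform annotation, 1832 several and 2473 none; 44961 were matched by gene identifier to RefSeq symbols. The lowest 30% by mean log2 (below 2.83, an intensity of 7.10) were left out, and the brightest probe set stood for a gene. Limma 3.58.1 in R 4.3.3 was fitted to all 14340 genes, and to all 31711 kept probe sets, with no replicate block and a Benjamini-Hochberg threshold of 0.05. Errors of differences have 4.98 total degrees of freedom.

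All 10 checkpoint genes are named, and per pathway list the 3 genes with the largest difference past the threshold, plus 2 genes marked as named once their values were known. The members and lists were chosen with earlier results of these data known. Alternatives were quantile normalization, no filter or a 50% filter, an offset of 16, means over probe sets, no _s_at or _x_at probe sets, an intensity trend, a replicate block and each array left out.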

Additional observations from a re-analysis of the deposited data

How the results depend on the processing

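Of the 10 checkpoint genes, 6 were called higher in the test used here. At an unadjusted limma p under 0.05 there were 6 or more in each alternative that kept all arrays. In the same alternatives 5424 to 6861 of all genes tested passed that cut in either direction. The number of checkpoint genes called higher was 5 to 8 in those alternatives, with 0 called lower throughout. With 1 array left out it was 0 to 2, checkpoint probe sets called higher were 0 in all such fits, and the median difference of the genes was 0.40 to 0.53. In those fits pathway genes numbered 0 to 15 higher and 0 to 1 lower, and all genes 0 to 796 higher and 0 to 167 lower. Fits without 1 mimic array called nothing (lowest adjusted p 0.0550 and 0.0551; unadjusted p under 0.05 in 4198 and 4269 genes); the lone array is assumed there to vary like the other group. RAD17 ranged from -0.10 without control replicate 1 to 0.06, a change of sign, without control replicate 2; the cause was not tested. The median difference of the checkpoint genes was 0.27 with 16 added to each intensity, 0.30 with probe sets averaged and 0.40 without _s_at and _x_at probe sets, where 8 checkpoint probe sets were called higher of 15 tested; CHEK2 and WEE1 could not be tested there, nor ATM and CLSPN with the 50% filter. After quantile normalization 4 pathway genes were called lower, and all genes split into 2058 higher and 2619 lower, against 2544 and 1766. Replicate numbers did not pair the arrays (correlation of same-numbered deviations from group means -0.001). With the replicate block 6 checkpoint genes were higher, 1 pathway gene was lower, and all genes numbered 1939 higher and 979 lower. Precision is limited by 2 arrays per group, and the values of ATM and CLSPN lie close to the dim level.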
